A study of Mus musculus with 6 samples.

Results

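The p53 protein, encoded by Trp53, is a transcription factor that answers DNA damage and other stress by switching on genes that stop the cell cycle, repair DNA or start cell death. The 10 genes described here are Trp53, the 3 GADD45 genes Gadd45a, Gadd45b and Gadd45g, and 6 genes known as p53 targets, Cdkn1a, Mdm2, Ccng1, Trp53inp1, Sesn1 and Btg2. They were chosen by name out of 11835 genes, with earlier results of these data known. The value of a gene is the sum of the FPKM (sequenced fragments scaled by transcript length and by the size of the library) of its transcripts. All 10 were in the deposited table and were among the 11593 genes whose mean over the 6 libraries reached 0.5 FPKM.

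The cells were C2C12, an immortalised mouse myoblast line that fuses into myotubes when serum is withdrawn. The labels give growth in 10% fetal bovine serum, a switch to 2% horse serum, and transfection with NC siRNA, a non-targeting control (siNC, 3 libraries), or with CNN3 siRNA against the actin-binding protein calponin 3 (siCNN3, 3 libraries). The study's methods call the sequenced cells differentiating myoblasts and describe, for differentiation, a repeated transfection and a later harvest than for proliferation. Which CNN3 siRNA was used for sequencing was not given in the sources used here, and all 6 libraries come from 1 cell line. Nothing in the labels says that the libraries of a group came from separate cultures, so the p-values measure the spread between these libraries, which may be technical.

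GADD45 proteins are small stress-induced proteins that bind PCNA, the CDK1 and cyclin B complex and the kinase MAP3K4, and thereby act on DNA repair, the passage into mitosis and the p38 and JNK kinases. Gadd45a is the member most closely tied to p53, while Gadd45b and Gadd45g are known mainly for induction by cytokines and other stress. In myoblasts Cdkn1a, which encodes the cyclin-dependent kinase inhibitor p21, is also raised on the way to differentiation, where MyoD can induce it without p53.

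Cnn3 itself lay between 61.4 and 62.8 FPKM in the siNC libraries and between 19.0 and 39.2 FPKM in the siCNN3 libraries, or 44.8% of the siNC mean, with a log2 difference of -1.19 (SE 0.242) that did not pass the threshold (limma, adjusted p = 0.0669). The label calls the cells mouse myotube, and muscle markers were present at unequal levels. Their sum was between 180.0 and 216 FPKM in siNC and between 104.5 and 125 FPKM in siCNN3, most of it from Des (desmin), with means of 117 and 91.3 FPKM. The skeletal actin gene Acta1 had means of 28.4 and 5.72 FPKM, and Myog, a regulator of differentiation, of 2.18 and 0.725 FPKM. Of 13 listed muscle markers, 11 were in the file, which lacked Actc1 and Ttn, and 10 were tested. Of these 10, 5 fell and 0 rose, and all 10 had every siCNN3 library below every siNC library, compared with 0.336% of all genes called lower and 9.35% fully below. With the filter at 5 FPKM 3 muscle markers fell, as the other called ones, Myh3 and Tnnt1, lay below that filter and were not tested. Only 1 fell without siNC replicate 3 or without siCNN3 replicate 2, and 2 fell without siCNN3 replicate 1. In bulk RNA, fewer cells of a type and less RNA per cell cannot be told apart, for the muscle markers and for every gene below. Of 16 interferon response genes, 10 rose and 0 fell, and their mean in siCNN3 lay between 3.33 and 4.46 above the siNC mean on the log2 scale, while the siNC libraries themselves ranged from -1.16 to 1.29. In all 16 every siCNN3 library was above every siNC library, while 1.73% of all genes were called higher and 13.8% were fully above. The number of these 16 called in limma was 6 with a pseudocount of 0.1, 3 without siNC replicate 1, 0 without siNC replicate 3 and 1 without siCNN3 replicate 1 or 2. Of the erythroid markers, 4 of 6 listed genes were in the file, all of them globin genes, of which 2 fell and 0 rose, and their summed level was 224 to 653 FPKM in siNC and 49.9 to 72.7 FPKM in siCNN3. The number of globin genes called in limma was 4 without siNC replicate 2, 1 without siCNN3 replicate 3 and 0 without any 1 of the other 4 libraries. It was 1 with no filter, no trend or failed 0 values left out. The summed level of 4 fibroblast markers was 495 to 567 FPKM in siNC and 376 to 401 FPKM in siCNN3, and that of the immune markers, of which 2 of 6 listed were in the file, was at most 10.2 FPKM in any library, with 0 of either list past the threshold. Of these, the fibroblast marker Dcn (log2 difference -1.21; limma, adjusted p = 0.0751) passed it without siCNN3 replicate 3 (-1.44, 0.0243). The libraries therefore differed in several programmes at once, and their part in the values of the 10 genes was not tested.

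Of the 10 genes, 3 rose in the siCNN3 libraries (Gadd45a, Gadd45g and Mdm2) and 0 fell. Over all genes tested, 1.73% rose and 0.336% fell (2.06% in either direction) at the same threshold, a Benjamini-Hochberg adjusted p of 0.05 in limma. With median-of-ratios scaling or quantile normalization of the libraries, Gadd45g was the 1 gene of the 10 that passed. At an unadjusted p under 0.05, 5 of the 10 were higher and 1 was lower, against 9.94% and 6.14% of all genes. In 5 genes every siCNN3 library lay above every siNC library, in 1 (Sesn1) every siCNN3 library lay below, and in 4 the groups overlapped. Over all genes, 13.8% were fully above and 9.35% fully below, 23.1% in all. The median log2 difference of the 10 genes was 0.63, and that of all genes 0.03. The difference was above 0 for 9 of the 10, compared with 54% of all genes. As the genes were chosen with earlier results of these data known, these shares describe them and are not a test. An exact two-sided permutation test of 3 against 3 libraries cannot give a p below 0.1, which is the value of every gene whose groups did not overlap.

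**Figure D1:**
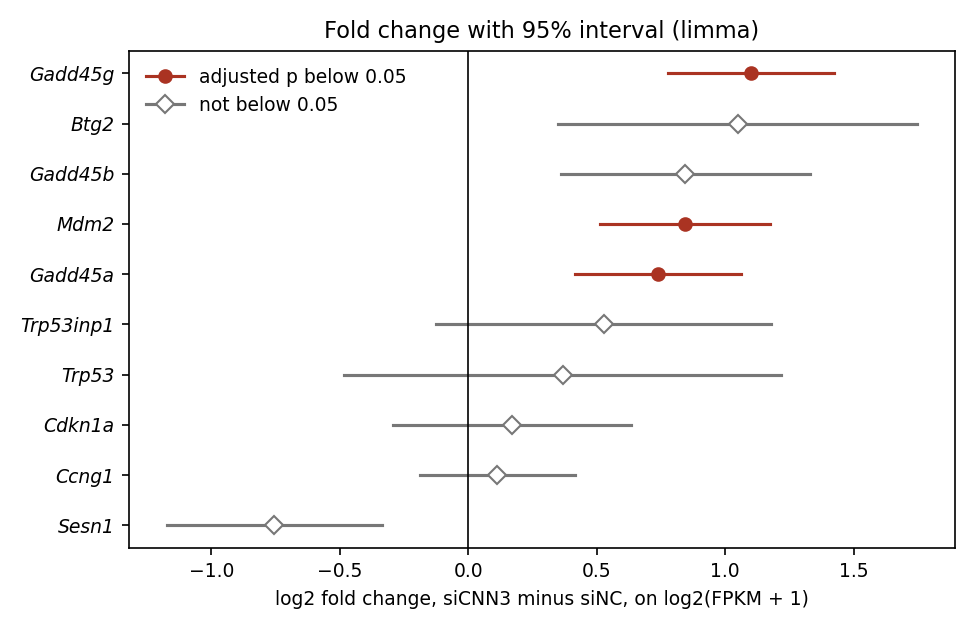
Log2 difference in FPKM + 1 (x axis, siCNN3 minus siNC) of the 10 genes, with points for the limma estimate and lines for its 95% confidence interval. The vertical line is at 0, and the median of all genes tested, 0.03, is not drawn. Gadd45g at 1.10, Mdm2 at 0.84 and Gadd45a at 0.74 passed the threshold, while Sesn1 at -0.76 was the gene below 0 and did not.

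The GADD45 genes lie on different chromosomes. In the mouse build GRCm38, Gadd45a is at chr6:67035096-67037457 on the minus strand, Gadd45b at chr10:80930073-80932204 on the plus strand and Gadd45g at chr13:51846678-51848468 on the plus strand. Mdm2, the other gene that rose, is at chr10:117688875-117710758 on the minus strand. The 250 bases before the RefSeq start (GRCm38.p6) of the 3 genes that rose and of Gadd45b are given to show what they share and do not share, each in the direction of its gene. Capitals mark the p53 half-site consensus, the unit of which a p53 response element holds a pair, and the CCAAT box (CCAAT, or ATTGG on the other strand).
Gadd45a, chr6:67037408-67037657, minus strand: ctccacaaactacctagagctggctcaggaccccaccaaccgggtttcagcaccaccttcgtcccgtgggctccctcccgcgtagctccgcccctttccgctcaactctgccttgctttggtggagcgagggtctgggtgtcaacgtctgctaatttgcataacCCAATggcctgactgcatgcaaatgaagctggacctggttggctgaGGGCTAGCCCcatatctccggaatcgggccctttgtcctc
Gadd45b, chr10:80929841-80930090, plus strand: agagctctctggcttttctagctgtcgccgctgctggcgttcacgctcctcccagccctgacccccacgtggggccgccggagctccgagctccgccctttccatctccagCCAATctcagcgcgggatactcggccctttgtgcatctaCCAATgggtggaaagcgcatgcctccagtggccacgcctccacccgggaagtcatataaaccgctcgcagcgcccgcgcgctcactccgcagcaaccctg
Gadd45g, chr13:51846425-51846674, plus strand: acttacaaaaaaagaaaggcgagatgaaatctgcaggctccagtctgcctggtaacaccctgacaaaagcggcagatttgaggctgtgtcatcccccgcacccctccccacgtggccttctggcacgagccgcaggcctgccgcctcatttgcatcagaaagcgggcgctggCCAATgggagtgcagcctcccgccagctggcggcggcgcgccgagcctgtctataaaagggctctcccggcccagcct
Mdm2, chr10:117710759-117711008, minus strand: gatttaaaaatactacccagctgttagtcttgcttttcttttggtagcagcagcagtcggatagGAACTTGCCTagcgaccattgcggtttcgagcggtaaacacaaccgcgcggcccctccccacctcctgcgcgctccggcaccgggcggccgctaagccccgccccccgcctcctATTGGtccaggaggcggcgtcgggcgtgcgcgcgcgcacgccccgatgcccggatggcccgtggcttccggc

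Each of these windows holds a CCAAT box, at 86 bases before the start in Gadd45a, at 139 and 100 in Gadd45b, at 78 in Gadd45g and at 72 in Mdm2. So do the windows of Btg2, Ccng1, Sesn1 and Trp53, which did not rise, making 8 of the 9 genes with a window. Over all 32851 windows of the same length, searched on both strands, 33.8% hold one. The half-site consensus was matched 40 bases before the start of Gadd45a and 186 bases before that of Mdm2, compared with 7.13% of all windows. Gadd45b and Gadd45g had no match in this window. Each has a TATA box (TATAA), at 46 and 27 bases before the start, as do 22.8% of all windows. Cdkn1a and Trp53 hold one as well, making 4 of the 9 genes with a window. Gadd45g was the only 1 of the 9 genes with a window to hold the element CARE (TGATGNAAN, 3.44% of all windows), which ATF4 and C/EBP proteins bind, at 102 bases before the start. A match is a description of the letters and does not show that a factor binds there. Windows were found for 9 of the 10 genes (11 windows, as Cdkn1a and Sesn1 have 2 each), and 6 of these genes had the half-site consensus in at least 1 window: Gadd45a, Mdm2, Cdkn1a, Ccng1, Sesn1 and Trp53.

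Gadd45a was the most abundant of the GADD45 genes. It measured 136, 113 and 103 FPKM in siNC replicates 1 to 3 and 201, 176 and 210.4 FPKM in siCNN3 replicates 1 to 3. The groups were well apart, with the lowest siCNN3 library above the highest siNC library. The means were 117 ± 16.9 and 196 ± 18.1 FPKM (SD, n = 3 each), and the log2 difference was 0.74 (SE 0.136, 95% confidence interval 0.42 to 1.06), which passed the threshold narrowly (limma, adjusted p = 0.0499). Gadd45a overlaps E230016M11Rik on the opposite strand, and without a stated use of strand their reads cannot be told apart. Gadd45a kept its direction but lost the call with any 1 library left out, with log2 differences of 0.65 to 0.85 and adjusted p-values of 0.0581 to 0.200 in limma. A pseudocount of 0.1, no filter, no trend or either other scaling ended the call as well (limma, adjusted p from 0.0515 to 0.105).

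Gadd45g, the least abundant of the 3, rose by the largest ratio. Its values were 22.8, 27.1 and 28.0 FPKM in siNC and 53.05, 53.4 and 64.4 FPKM in siCNN3. Both groups were tight and the gap between them was wider than either range. The mean went from 26.0 ± 2.76 to 56.9 ± 6.43 FPKM (SD, n = 3 each), 2.19 times the siNC mean, with a log2 difference of 1.10 (SE 0.136, 95% confidence interval 0.78 to 1.43; limma, adjusted p = 0.0152). Leaving out siNC replicate 3 (limma, adjusted p = 0.0748), siCNN3 replicate 1 (0.0684) or siCNN3 replicate 2 (0.0794) ended the call.

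Gadd45b measured 42.0, 32.8 and 37.4 FPKM in siNC and 59.9, 56.4 and 91.3 FPKM in siCNN3. All siCNN3 libraries were above all siNC libraries, but siCNN3 replicate 3 stood well above the other two. The means were 37.4 ± 4.57 and 69.2 ± 19.2 FPKM (SD, n = 3 each). The log2 difference of 0.84 (SE 0.204, 95% confidence interval 0.36 to 1.33) did not pass the threshold (limma, adjusted p = 0.101), although its estimate was as large as that of Mdm2, whose libraries scattered less.

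The 3 GADD45 genes together reached 201, 173 and 168 FPKM in siNC and 314, 285 and 366 FPKM in siCNN3, and the mean of the sum was 1.78 times as high in siCNN3. Within that sum the genes kept their order in every library. Gadd45a made up 61.2% to 67.7% of it in siNC and 57.5% to 64.1% in siCNN3, Gadd45b 19.0% to 22.2% and 19.1% to 24.9%, and Gadd45g 11.4% to 16.6% and 16.9% to 18.7%. The share of Gadd45g was the one whose groups did not overlap, by a narrow margin.

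**Figure D2:**
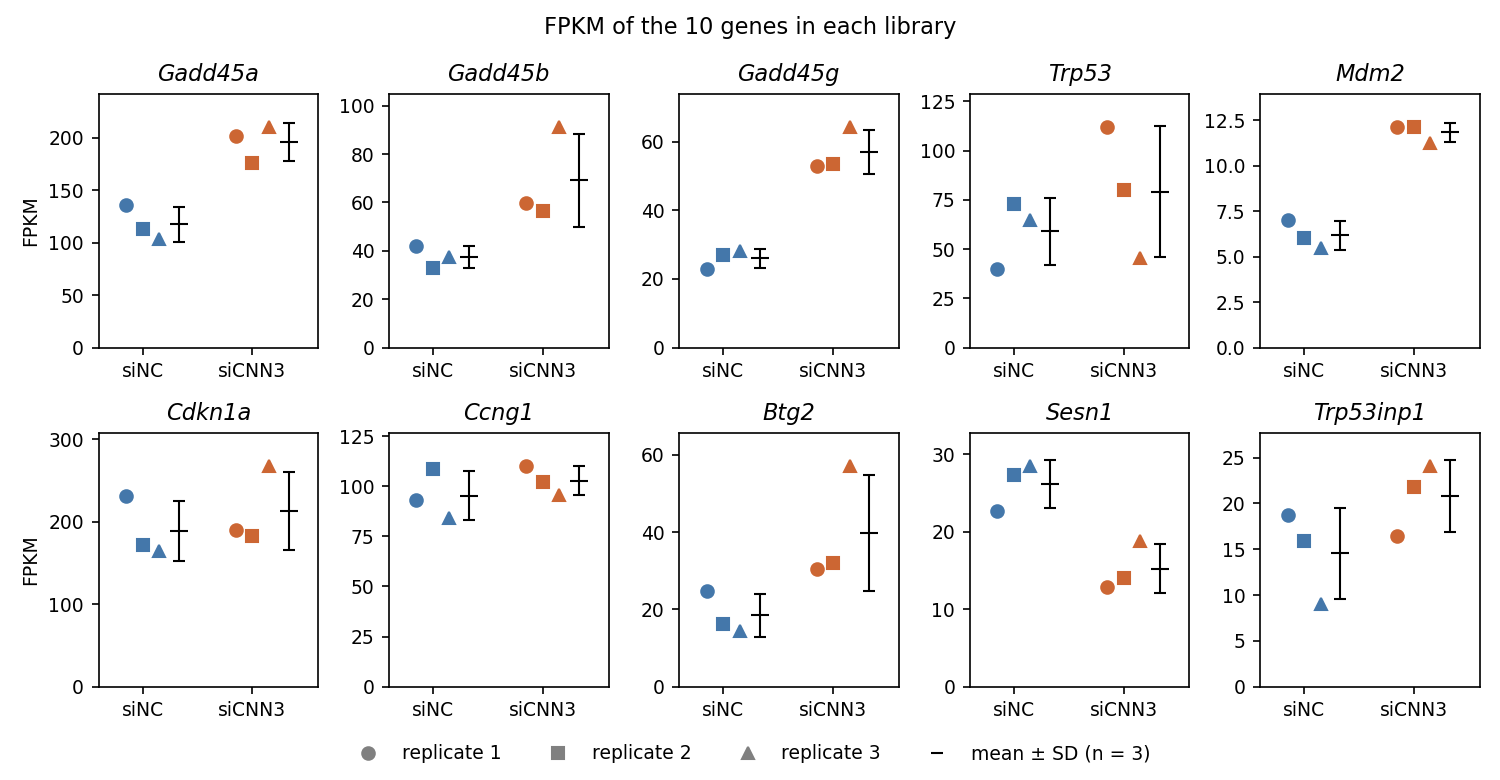
FPKM (y axis) of each of the 10 genes in each library, 1 panel per gene, with points for the libraries and bars for the mean and SD of the 3 libraries of a group. Gadd45a, Gadd45b, Gadd45g, Mdm2 and Btg2 have all siCNN3 points above all siNC points, Sesn1 has them below, and Cdkn1a, Ccng1, Trp53 and Trp53inp1 overlap.

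Trp53 and its main inhibitor Mdm2 come next. MDM2 is a ubiquitin ligase that marks p53 for breakdown, and since p53 switches on Mdm2 the pair forms a feedback loop. Mdm2 measured 7.01, 6.04 and 5.46 FPKM in siNC and 12.1, 12.1 and 11.2 FPKM in siCNN3. The siCNN3 libraries were close to each other and all above siNC. The mean rose from 6.17 ± 0.783 to 11.8 ± 0.516 FPKM (SD, n = 3 each), with a log2 difference of 0.84 (SE 0.139, 95% confidence interval 0.51 to 1.17; limma, adjusted p = 0.0372). Of the 6 fits that left out 1 library, the call was kept only without siCNN3 replicate 3 (limma, adjusted p = 0.0351), and the range was 0.77 to 0.93. The call also ended with median-of-ratios scaling and quantile normalization (limma, adjusted p = 0.0523 and 0.0577). Mdm2 was the least abundant of the 10 genes in both groups.

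Mdm2 is listed with 2 transcripts of 12 exons, which share both ends. Mdm2-201 measured 4.53, 4.32 and 3.92 FPKM in siNC and 8.66, 7.27 and 7.16 FPKM in siCNN3, and Mdm2-202 measured 2.47, 1.72 and 1.54 FPKM and 3.48, 4.82 and 4.06 FPKM. Both transcripts had all siCNN3 libraries above all siNC libraries. Neither passed by itself over the 21658 transcripts tested, with log2 differences of 0.72 and 0.82 (limma, adjusted p = 0.180 and 0.240). Of the 19 transcripts of the 10 genes, 1 rose and 0 fell at this level, compared with 0.462% and 0.0785% of all transcripts tested. That 1 was the single listed transcript of Gadd45g (log2 difference 1.10; limma, adjusted p = 0.0416).

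Trp53 (chr11:69580359-69591873, plus strand) measured 40.0, 72.7 and 64.6 FPKM in siNC and 112, 79.8 and 45.5 FPKM in siCNN3. The groups overlapped broadly, as siCNN3 replicate 1 was the highest of all and siCNN3 replicate 3 lay below 2 of the siNC libraries. The log2 difference of 0.37 (SE 0.358, 95% confidence interval -0.48 to 1.22) was not past the threshold (limma, adjusted p = 0.661), and its interval was the widest of the 10 genes, so that changes in either direction lie inside it. With 1 library left out the log2 difference of Trp53 ranged from 0.072 (without siCNN3 replicate 1) to 0.71 (without siCNN3 replicate 3).

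The transcripts of Trp53 divided the libraries in another way. Trp53-202 made up 68.9%, 25.0% and 69.1% of the gene's FPKM in siNC replicates 1 to 3 and 71.6%, 22.8% and 71.2% in siCNN3 replicates 1 to 3. Trp53-203 made up 14.1%, 29.5% and 13.0% in siNC and 10.3%, 39.8% and 11.1% in siCNN3. The replicates numbered 2 of both groups thus differed from the other 4 libraries, while siNC and siCNN3 did not separate. All 4 listed Trp53 transcripts have 11 exons and lengths of 1771 to 1867 bases and share nearly all of their sequence, so that reads could be assigned to one or another, and the share of each is uncertain. The smallest adjusted p among them was 0.866 in limma.

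**Figure D3:**
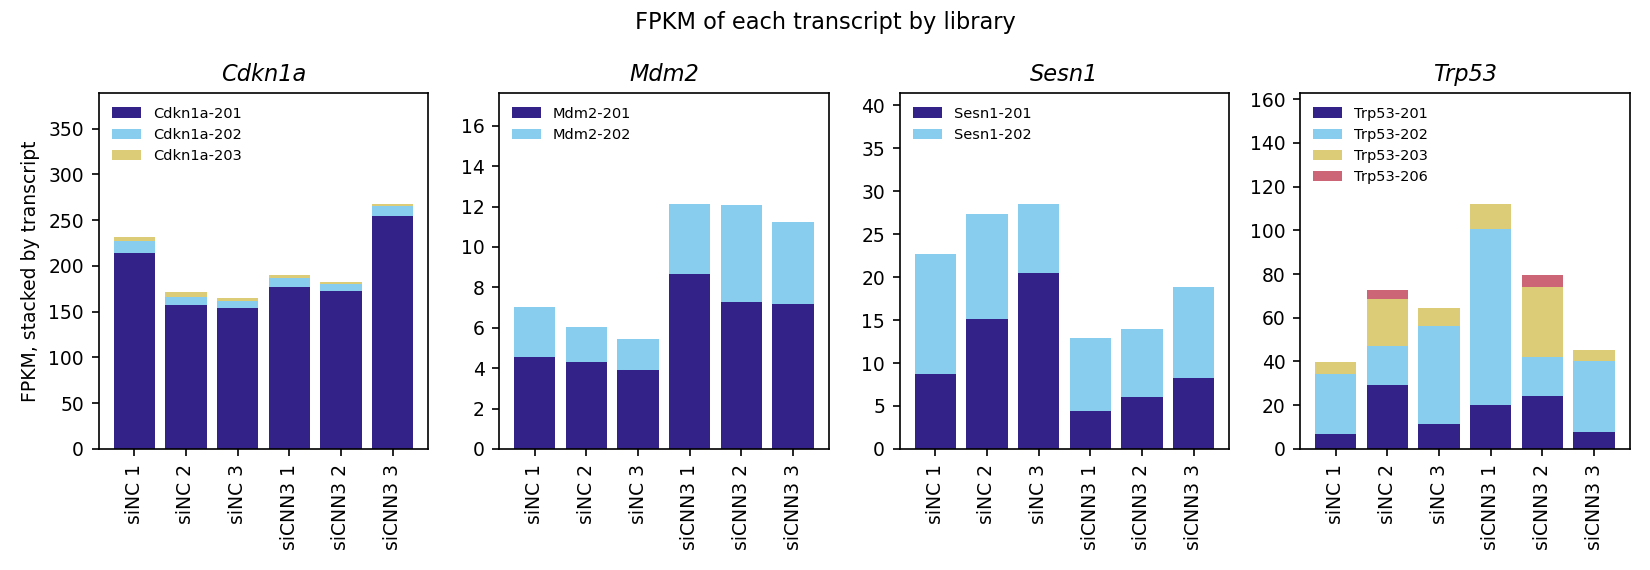
FPKM (y axis) of the listed transcripts of Cdkn1a, Mdm2, Sesn1 and Trp53 stacked for each library (x axis). Both Mdm2 transcripts are taller in the siCNN3 libraries, and the replicates numbered 2 of both groups have a smaller part of Trp53-202 (25.0% and 22.8% of the gene).

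Cdkn1a and Btg2 are the targets that hold back cell division most directly. Cdkn1a (chr17:29090976-29100727, plus strand), the most abundant of the 10 genes, measured 231, 171 and 165 FPKM in siNC and 189, 183 and 268 FPKM in siCNN3. The groups overlapped, as siNC replicate 1 lay above 2 of the siCNN3 libraries. The log2 difference was 0.17 (SE 0.195, 95% confidence interval -0.29 to 0.63; limma, adjusted p = 0.718). The log2 difference of Cdkn1a was -0.0048 without siCNN3 replicate 3 (limma, adjusted p = 0.989), 0.32 without siNC replicate 1 (0.473) and 0.15 without both (0.245). The interval for Cdkn1a overlapped those of Gadd45a (from 0.42) and Mdm2 (from 0.51) and lay below that of Gadd45g (from 0.78). The differences between genes were not tested.

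Cdkn1a is listed with 3 transcripts. Cdkn1a-201, which starts at position 29093769, held 91.8% to 93.2% of the gene's FPKM in siNC and 93.4% to 94.9% in siCNN3. Cdkn1a-202, which starts farther upstream at position 29090979, held 4.55% to 5.77% and 3.90% to 5.12%. The window before the upstream start, shown because it is the one with p53 half-sites, has 2 of them in capitals, at 73 and 51 bases before it, while the window before position 29093769 has 0.
Cdkn1a, upstream start, chr17:29090729-29090978, plus strand: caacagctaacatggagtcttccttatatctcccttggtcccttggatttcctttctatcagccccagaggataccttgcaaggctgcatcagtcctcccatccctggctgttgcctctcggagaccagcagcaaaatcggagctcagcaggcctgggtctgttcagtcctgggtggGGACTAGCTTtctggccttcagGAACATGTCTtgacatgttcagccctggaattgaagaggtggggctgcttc

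Cdkn1a-203, a minor transcript, measured 4.01, 5.18 and 3.67 FPKM in siNC and 2.72, 2.82 and 2.65 FPKM in siCNN3. Its libraries did not overlap, and it ran opposite to the sum of the gene, with a log2 difference of -0.49 that was not past the threshold (limma, adjusted p = 0.434). Reads shared with the other transcripts make it uncertain.

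Btg2 (chr1:134075170-134079120, minus strand) encodes an antiproliferative protein that recruits the CCR4-NOT complex to messenger RNA. It measured 24.7, 16.1 and 14.5 FPKM in siNC and 30.3, 31.9 and 57.2 FPKM in siCNN3. All siCNN3 libraries were above siNC, but siCNN3 replicate 3 was far above the other two, and siNC replicate 1 was the highest of its group. The means were 18.4 ± 5.50 and 39.8 ± 15.1 FPKM (SD, n = 3 each). Its log2 difference of 1.05 (SE 0.295, 95% confidence interval 0.35 to 1.75) was close to that of Gadd45g but did not pass the threshold (limma, adjusted p = 0.140); the SE of Gadd45g was 0.136.

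Ccng1 (chr11:40748552-40755311, minus strand) encodes cyclin G1, which brings phosphatase 2A to MDM2. It measured 93.0, 108 and 84.2 FPKM in siNC and 110.3, 102 and 95.7 FPKM in siCNN3. Values of both groups interleaved, and the scatter within each was small. The log2 difference was 0.11 (SE 0.127, 95% confidence interval -0.19 to 0.41; limma, adjusted p = 0.710), under quantile normalization it was -0.021, and with 1 library left out it ranged from 0.029 (without siNC replicate 3) to 0.21 (without siNC replicate 2). Trp53inp1 (chr4:11156431-11174379, plus strand), whose product acts in autophagy and p53-dependent cell death, measured 18.7, 15.9 and 9.07 FPKM in siNC and 16.5, 21.8 and 24.1 FPKM in siCNN3. The siNC libraries spread over more than the siCNN3 libraries and overlapped them. The log2 difference was 0.53 (SE 0.275, 95% confidence interval -0.12 to 1.18; limma, adjusted p = 0.397), and 0.24 without siNC replicate 3, the lowest of 6 fits that each left out 1 library, of which the highest was 0.73.

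Sesn1 (chr10:41809935-41908424, plus strand) was the gene with a value below 0. Sestrins are leucine-sensing inhibitors of the kinase mTORC1 that act through the GATOR2 complex, and both Sesn1 and its relative Sesn2 are known p53 targets. Sesn1 measured 22.7, 27.4 and 28.5 FPKM in siNC and 12.9, 14.0 and 18.9 FPKM in siCNN3. Every siCNN3 library was lower than every siNC library, with siCNN3 replicate 3 the nearest to siNC. The means were 26.2 ± 3.10 and 15.2 ± 3.19 FPKM (SD, n = 3 each). The log2 difference of -0.76 (SE 0.176, 95% confidence interval -1.17 to -0.34) was not past the threshold with all libraries (limma, adjusted p = 0.0914), and passed without siCNN3 replicate 3 at -0.91 (limma, adjusted p = 0.0281).

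The 2 listed Sesn1 transcripts begin at different starts. Sesn1-201, from the downstream start at position 41887439, measured 8.71, 15.1 and 20.5 FPKM in siNC and 4.37, 6.02 and 8.23 FPKM in siCNN3. Its groups did not overlap, by a small gap between siNC replicate 1 and siCNN3 replicate 3. Sesn1-202, from the upstream start at position 41809935, measured 14.0, 12.3 and 8.03 FPKM in siNC and 8.50, 7.97 and 10.6 FPKM in siCNN3, and its groups overlapped. The log2 differences were -1.09 and -0.29, and neither passed (limma, adjusted p = 0.333 and 0.719). The difference between the transcripts was not tested.

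Sesn2, which ATF4 as well as p53 can induce, had values on the other side of 0. It measured 8.71, 8.38 and 7.08 FPKM in siNC and 21.2, 18.1 and 12.8 FPKM in siCNN3, without overlap (log2 difference 1.00, SE 0.201; limma, adjusted p = 0.0648), and passed the threshold without siCNN3 replicate 3 (1.19; limma, adjusted p = 0.0145). The ratio of Sesn2 to Sesn1 within a library was 0.384, 0.306 and 0.248 in siNC and 1.65, 1.29 and 0.678 in siCNN3. In siNC Sesn1 was the more abundant in every library, and in siCNN3 Sesn2 was the more abundant in replicates 1 and 2. The sum of both genes had a mean of 34.3 ± 2.49 FPKM (siNC) and of 32.6 ± 1.28 FPKM (siCNN3), each with its SD over n = 3. Trp53inp2, the relative of Trp53inp1, measured 21.6, 33.0 and 28.6 FPKM in siNC and 13.9, 15.0 and 15.0 FPKM in siCNN3 (log2 difference -0.86; limma, adjusted p = 0.0622), and passed it without siNC replicate 1 and under both other scalings (-0.89 and -0.96). Of the 10 relatives of these families that could be tested, 0 rose and 0 fell in limma (2 and 1 at an unadjusted p under 0.05), and their median was 0.01.

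By level in siNC the order was Cdkn1a, Gadd45a, Ccng1, Trp53, Gadd45b, Sesn1, Gadd45g, Btg2, Trp53inp1 and Mdm2, compared as FPKM and thus per length. The ranges of neighbours were apart between Cdkn1a and Gadd45a, Ccng1 and Trp53, Gadd45b and Sesn1, and Trp53inp1 and Mdm2, and overlapped elsewhere. In siCNN3 the first 5 places were the same, followed by Gadd45g, Btg2, Trp53inp1, Sesn1 and Mdm2. There the ranges were apart between Gadd45a and Ccng1, Btg2 and Trp53inp1, and Sesn1 and Mdm2. Cdkn1a and Gadd45a overlapped in siCNN3, although Cdkn1a lay above the range of Gadd45a in siNC.

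One library in each group stood high for many of the genes. SiNC replicate 1 was the highest of its group for 6 of the 10 (Gadd45a, Gadd45b, Cdkn1a, Mdm2, Trp53inp1 and Btg2), and siCNN3 replicate 3 for 7 (Gadd45a, Gadd45b, Gadd45g, Cdkn1a, Trp53inp1, Sesn1 and Btg2). SiNC replicate 1 was also the lowest of its group for 3 (Gadd45g, Trp53 and Sesn1), and siCNN3 replicate 3 for 3 (Mdm2, Ccng1 and Trp53). The same libraries had the lowest mean of 18 mitotic genes that p53 and the DREAM repressor complex lower, at -0.48 and -0.42 relative to the siNC mean on the log2 scale, compared with 0.05 to 0.43 in the other 4 libraries. Without both libraries, a comparison of 2 against 2 chosen after seeing the data, 5 of the 10 genes rose (Gadd45a, Gadd45b, Gadd45g, Mdm2 and Btg2) and Sesn1 fell, while 557 of all genes rose and 287 fell. The part of the mitotic genes in these values was not tested.

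**Figure D4:**
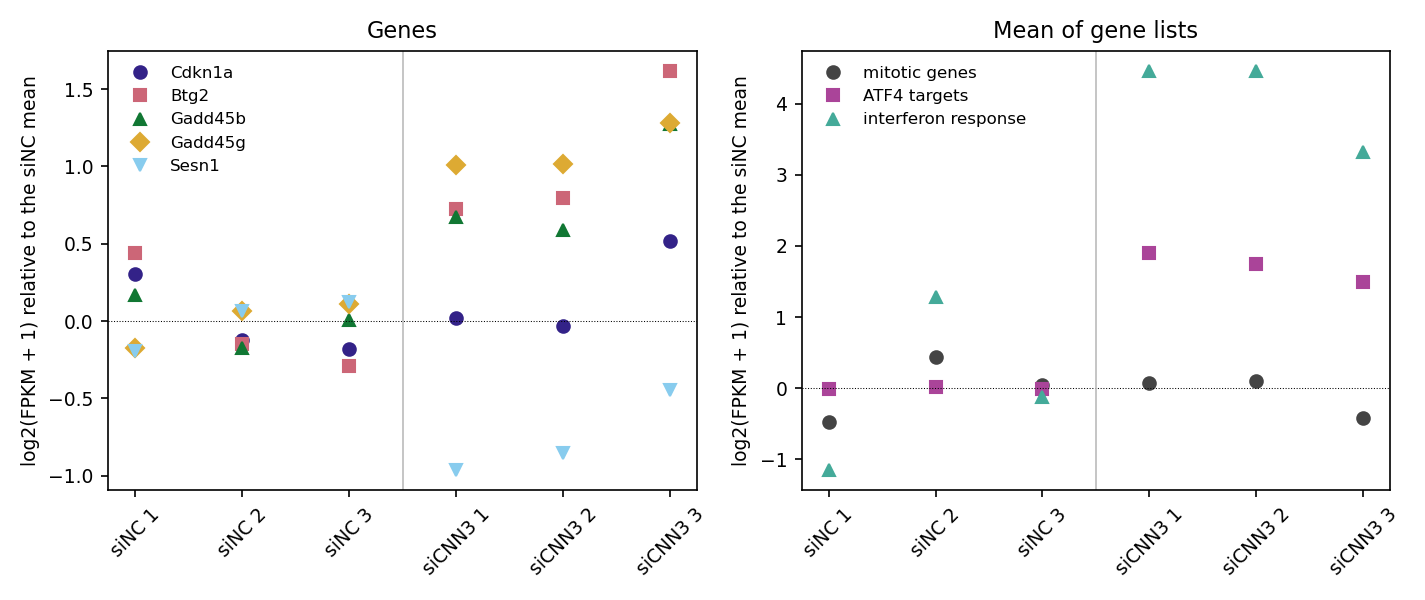
Log2(FPKM + 1) relative to the siNC mean (y axis) of 5 of the genes (left) and of the mean of 3 gene lists (right) in each library (x axis). SiCNN3 replicate 3 is the highest for Btg2 and Cdkn1a and, with siNC replicate 1, the lowest for the mitotic genes (-0.42 and -0.48).

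Other targets of p53 were compared as a list of 35 genes, of which 34 were tested. This and the other lists were also chosen with earlier results of these data known, so their shares are descriptions. In limma 2 rose (5.88%, against 1.73% of all genes) and 0 fell, with 10 higher and 2 lower at an unadjusted p under 0.05. In 12 genes (35.3%, against 13.8%) every siCNN3 library was above every siNC library, and in 2 every one was below. The median log2 difference was 0.23. Both genes that rose can also be induced by other stress. Gdf15, a secreted stress cytokine, measured 19.8, 11.3 and 9.76 FPKM in siNC and 58.5, 55.5 and 65.4 FPKM in siCNN3 (log2 difference 2.11, SE 0.248; limma, adjusted p = 0.0144). Plk2, a polo-like kinase, measured 95.3, 93.7 and 90.8 FPKM in siNC and 157, 164 and 189 FPKM in siCNN3 (log2 difference 0.85, SE 0.106; limma, adjusted p = 0.0152). In both the gap between the groups exceeded the range of either. Both lost the call when siNC replicate 3 or either of the siCNN3 replicates 1 and 2 was left out (limma, adjusted p from 0.0621 to 0.0986), and Plk2 also without siNC replicate 1 (0.0510). Without siCNN3 replicate 3, Dcxr was called lower (-0.75; limma, adjusted p = 0.0498) and Sesn2 higher, and Gdf15 and Plk2 kept their calls.

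Regulators of p53, such as the kinases that phosphorylate it and the ligases that degrade it, numbered 17 tested genes. In limma 0 rose and 0 fell, with 2 higher and 0 lower at an unadjusted p under 0.05, and the median was -0.01. The values farthest from 0 were those of Atm, the DNA damage kinase, at 0.85 (limma, adjusted p = 0.275, and 0.0424 without siCNN3 replicate 3), and of Pml at 0.55 (0.127). The 18 mitotic genes had 0 that rose and 0 that fell in limma, also at an unadjusted p under 0.05, with log2 differences from -0.52 (Foxm1) to 0.19, a median of -0.05, and groups that overlapped in all 18. Foxm1 and Cdc20, at -0.52 and -0.48, had adjusted p-values of 0.556 and 0.523 in limma. With 1 library left out Foxm1 ranged from -0.84 (without siCNN3 replicate 2) to -0.17 (without siCNN3 replicate 3), and Cdc20 from -0.83 (without siNC replicate 1) to -0.16 (without siNC replicate 2). Of 16 tested G1 cyclins, CDKs and pocket proteins, 0 rose and 0 fell (1 and 1 at an unadjusted p under 0.05), with a median of 0.03 and the largest values at Ccnd2 (1.05; limma, adjusted p = 0.0726, and 0.00647 without siCNN3 replicate 3) and Ccne2 (0.49, 0.554).

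Binding partners of GADD45 proteins and genes of the MAPK cascade were compared in a list of 19 tested genes, which also holds Ddit3 and Ppp1r15a by their GADD names. These 2 rose, and of the 17 partners and MAPK genes 0 rose and 0 fell in limma, also at an unadjusted p under 0.05, while the median of the 19 was 0.03. Ddit3, which encodes the stress transcription factor CHOP, measured 122, 72.8 and 71.2 FPKM in siNC and 438, 379 and 570.1 FPKM in siCNN3 (log2 difference 2.40, SE 0.245; limma, adjusted p = 0.0099). Ppp1r15a, also named GADD34, directs a phosphatase to the translation factor eIF2 alpha and measured 12.1, 11.8 and 8.82 FPKM in siNC and 38.6, 37.4 and 22.5 FPKM in siCNN3 (log2 difference 1.48, SE 0.236; limma, adjusted p = 0.0332). In Ddit3 the gap between the groups exceeded the range of either, and in Ppp1r15a it was smaller than the range of siCNN3. Ppp1r15a kept the call with 1 library left out only without siCNN3 replicate 3, and Ddit3 lost it without siNC replicate 3 (limma, adjusted p = 0.0642). Both share the name of the growth arrest and DNA damage family without being of the GADD45 family, and both belong to the ATF4 list.

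ATF4 is the transcription factor of the integrated stress response, which follows amino acid shortage, unfolded proteins or double-stranded RNA. The list tested here has 14 genes, its targets and Atf4 itself, of which 8 rose (57.1%, against 1.73% of all genes) and 0 fell in limma, with 12 and 0 at an unadjusted p under 0.05, and the median was 1.93. Atf4 was 1 of the 8, at 1.03 (limma, adjusted p = 0.0427). The number that rose was 1 without siNC replicate 3, 12 without siCNN3 replicate 3, and 5 when siNC replicate 1 or either of siCNN3 replicates 1 and 2 was left out. Among those that rose in the fit to all libraries, the largest were Trib3 at 2.91 (limma, adjusted p = 0.0144), Chac1 at 2.79 (0.00473), Nupr1 at 2.79 (0.0099), Ddit3, Asns at 2.30 (0.00972) and Atf3 at 2.03 (0.0099). Nupr1, Asns and Atf3 lost the call without siNC replicate 3, and Trib3 without siNC replicates 1 or 3 or siCNN3 replicates 1 or 2 (limma, adjusted p from 0.0564 to 0.0734). The list mean relative to siNC was 1.90, 1.74 and 1.49 in siCNN3 replicates 1 to 3, and that of the 10 genes was 0.45, 0.42 and 0.63. The order of the siCNN3 libraries differed between the genes within each of these sets. Of the other p53 targets, 2 are also in the ATF4 list. The part of the ATF4 list in the values of the GADD45 genes and Mdm2 was not tested.

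**Figure D5:**
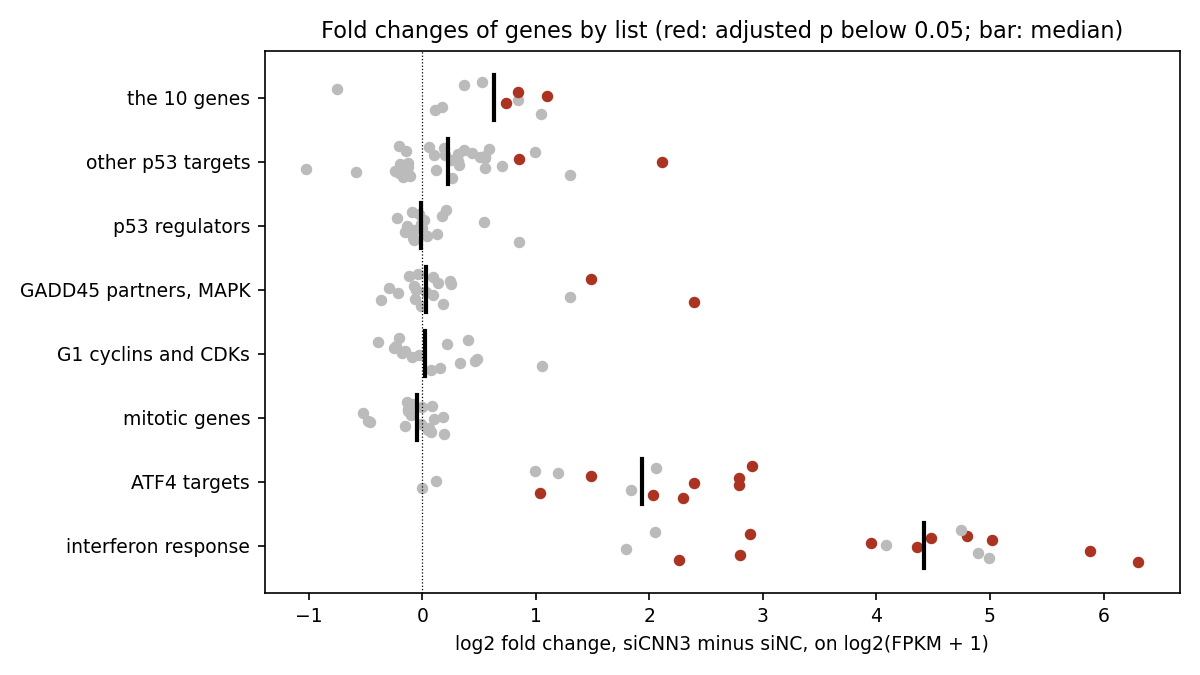
Log2 difference in FPKM + 1 (siCNN3 minus siNC) of each gene of the lists, with points for genes and bars for the median of a list. The medians were 0.63 for the 10 genes, 0.23 for other p53 targets, -0.05 for mitotic genes, 1.93 for the ATF4 list and 4.42 for interferon response genes, compared with 0.03 for all genes tested.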

How the data were processed

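RNA from C2C12 libraries (3 siNC, 3 siCNN3) was sequenced by the authors, who deposited FPKM values for 24023 Ensembl transcripts. The submitters' processing notes name Bowtie 0.12.2 and the builds mm8 and mm10. Read numbers, annotation and the program behind the FPKM are not given in the sources used here, so depth and counting error are unknown. Values of 0 can be failed estimates: for 238 transcripts a library was at 0 while another of its group reached 10 FPKM.

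Transcripts were matched to GENCODE M21 (GRCm38) without their version (23949 matched, 22790 with the version), the 74 others (0.159% to 0.220% of a library's FPKM) were left out, and FPKM were summed per gene. Genes whose mean reached 0.5 FPKM were fitted as log2(FPKM + 1), which understates changes of low genes. The fit used limma 3.58.1 under R 4.3.3, with its trended moderated test and Benjamini-Hochberg adjustment over all genes tested at a threshold of 0.05. The script was tested on simulated data. Transcripts were fitted likewise. Exact permutation tests were two-sided.

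The members and lists were chosen with earlier results of these data known. Named are the 10 genes, their transcripts, Cnn3 and, from each list, up to 6 genes past the threshold or, where fewer than 2 pass, the 2 largest. Not all are printed for the marker and interferon lists. Alternatives were quantile normalization, median-of-ratios scaling, a pseudocount of 0.1, filtering at 5 FPKM or not at all, limma without a trend, transcripts with a failed 0 left out, the replicate number as a block, and each library left out. A fit without siNC replicate 1 and siCNN3 replicate 3 was added after seeing the data. Promoter windows are from RefSeq (GRCm38.p6).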

Additional observations from a re-analysis of the deposited data

How the results depend on the processing

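The direction of Gadd45a, Gadd45g, Mdm2 and Sesn1 was kept under every alternative run. Gadd45a, Gadd45g and Mdm2 each lost the call under some of them, and Sesn1, not called with all libraries, gained one without siCNN3 replicate 3; the cause was not tested. Gadd45a, at 0.74 (log2), was past the threshold with the filter at 5 FPKM (limma, adjusted p = 0.046), and was not with a pseudocount of 0.1 (0.74), no filter (0.74), median-of-ratios scaling (0.70), quantile normalization (0.60), no trend (0.74) or failed 0 values left out (0.74). Mdm2 was not past it with median-of-ratios scaling (0.81) or quantile normalization (0.78), which left 1 of the 10 genes called higher each. The same settings gave 63 and 93 genes called lower over all genes, against 39, so that 77.7% and 68.2% of called genes were higher, against 83.7%. Ccng1 changed sign under quantile normalization (-0.021), and Cdkn1a without siCNN3 replicate 3. The deviations of same-numbered libraries correlated at -0.28, 0.31 and -0.025, so that the replicate numbers did not pair the libraries throughout. The highest correlation across the groups was 0.44, between siNC replicate 1 and siCNN3 replicate 3. With the number as a replicate block, the counts were 62 genes higher, 6 lower, 13 in the lists other than the cell type markers (20 without it) and 0 of the 10 genes, with Gadd45a at 0.74, Gadd45g at 1.10 and Mdm2 at 0.84. Leaving out 1 library at a time gave 16 to 444 genes higher (200 with all), 4 to 161 lower, 1 to 27 called in those lists, 0 to 2 of the 10 genes higher and 0 to 1 lower. Over these fits Gadd45a was 0.65 to 0.85, Gadd45g 1.01 to 1.16, Mdm2 0.77 to 0.93, Btg2 0.76 to 1.27, Gadd45b 0.63 to 0.97, Sesn1 -0.91 to -0.65, Cdkn1a -0.0048 to 0.32 and Cnn3 -1.46 to -0.95, past the threshold without siCNN3 replicate 2 (limma, adjusted p = 0.0475). Without siNC replicate 1 and siCNN3 replicate 3, 557 genes were higher and 287 lower, 5 of the 10 genes were higher and 1 lower, and Btg2 (0.98), Gadd45b (0.72), Mdm2 (0.96) and Sesn1 (-1.01) were past the threshold. Depth is unknown and limits what can be said of the low genes, Mdm2 among them.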
